A study of Bos taurus with 15 samples.

Results

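The centromere-proximal 2 Mb of the bovine autosomes were taken as every listed CpG position from 1 to 2000000 on chromosomes 1 to 29. They formed 29 windows, 1 per chromosome, of 1271 windows of 2 Mb on the autosomes, and they held 580 of 25138 bins of 100 kb. Membership was set by the position alone and by no measured value, though the windows were chosen with earlier results of these data known. The method was RRBS (reduced representation bisulfite sequencing), in which restriction enzymes enrich CpG-rich fragments and bisulfite marks unmethylated cytosines. Liver came from newborn Holstein bull calves and mammary gland from Holstein heifers at day 21 of their first lactation. For the last 6 to 7 weeks of gestation their dams either had shade only (in utero heat stressed, IUHT) or had shade, fans and soakers (in utero cooled, IUCL). The groups were IUCL-B (5 bull calves, numbered 1 to 5), IUHT-B (4 bull calves, numbered 2 to 5), IUCL-H (3 heifers) and IUHT-H (3 heifers). Each animal gave 1 library of whole tissue, so tissue, sex and age cannot be told apart in a comparison of liver with mammary gland.

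Bovine autosomes are acrocentric: the centromere lies at an end of the chromosome. Assembly positions were taken to be numbered from that end, which was not checked for each chromosome, so proximal means here the first assembled 2 Mb. Centromeres themselves are built of satellite repeats that assemblies hold in part only, so the first assembled bases are the sequence next to them, often rich in repeats and copied segments. In mammals most CpGs outside CpG islands are methylated, and methylation of satellite repeats near centromeres has a known role in chromosome stability. Positions below are those of the assembly UMD3.1 as the files give them, and no annotation of genes on that assembly entered the work.

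The libraries differed in how many positions they listed. Calves listed 7935 to 157743 positions in these 2 Mb windows and heifers 194088 to 258146, of 307023 to 9753540 positions in a whole file. IUCL-B calves 4 and 5 stood apart, with 88045 and 157743 proximal positions against 7935 to 26718 in the other 7 calves. The mean number of read calls per proximal position was 7.43 to 56.0 in calves and 2.20 to 2.79 in heifers. The median was 1 to 11 reads in calves and 1 read in heifers. It was 2 in IUHT-B 3, whose mean was 56.0, and 1 in IUHT-B 5, whose mean was 33.7. In every animal the windows were more densely listed than the stretch from 10 to 20 Mb of the same chromosomes (called inner below), by 1.24 to 1.43 times in calves and 1.30 to 1.48 times in heifers. The proximal windows held 2.55% to 2.82% of the autosomal positions of an IUHT-B calf and 2.62% to 2.77% of those of an IUCL-B calf.

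The proximal windows were less methylated than the inner stretch in all 15 animals. The level of an animal is the mean percent methylated over positions, averaged over the 29 chromosomes. In IUCL-B calves 1 to 5 the proximal level was 72.8%, 72.6%, 74.0%, 74.3% and 72.1%, against inner levels of 75.6%, 76.3%, 77.2%, 76.5% and 73.9%. In IUHT-B calves 2 to 5 it was 73.9%, 73.0%, 74.4% and 74.3%, against 77.5%, 76.6%, 77.3% and 77.1% in the inner stretch. Proximal and inner levels did not overlap in the IUHT-B calves, and in the IUCL-B calves they overlapped only through calf 5.

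In heifers the same order held. The proximal level was 71.0%, 69.8% and 67.0% in IUCL-H 1 to 3 and 67.9%, 70.6% and 68.7% in IUHT-H 1 to 3. The inner level was 73.9%, 73.8% and 69.7% in IUCL-H and 71.5%, 74.2% and 71.7% in IUHT-H. The proximal minus inner difference was -2.97 ± 0.673 points in liver (SD, n = 9 calves, two-sided exact sign-flip permutation test p = 0.00391, Benjamini-Hochberg adjusted p over 11 tests of levels 0.0143). In mammary gland it was -3.29 ± 0.511 points (SD, n = 6 heifers, exact sign-flip permutation p = 0.0312, adjusted p = 0.0688), and 0.0312 is the smallest p that 6 heifers can give. Without IUCL-B calves 4 and 5 the liver difference was -3.26 points (exact permutation p = 0.0156). Taken over the positions of all chromosomes together, the difference was only -1.10 points in liver and -0.73 in mammary gland, and with the reads of a chromosome pooled it was -3.35 and -2.01 points. With more than 10 reads a heifer had as few as 1 to 4 proximal positions on a chromosome. At such positions the mammary difference was -2.90 points and not past 0.05 (exact permutation p = 0.125). Its size also depended on the length of the window. Over the first 1 Mb it was -4.29 points in liver and -4.91 points in mammary gland, and over the first 5 Mb -0.889 and -0.997 points, with IUCL-B 5 at +0.184.

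The opposite end of the same chromosomes lay on the other side of the inner stretch. Over the last 2 Mb before the largest listed position, the level was 81.0% ± 1.13 in liver (SD, n = 9) and 77.5% ± 1.32 in mammary gland (SD, n = 6). The proximal minus distal difference was -7.48 ± 1.00 points in liver (exact sign-flip permutation p = 0.00391, all 9 calves, adjusted p = 0.0143) and -8.29 ± 0.496 points in mammary gland (exact permutation p = 0.0312, all 6 heifers, adjusted p = 0.0688). Over the positions of all chromosomes together it was -5.59 and -5.16 points. The plot of levels by animal shows the 3 parts of the chromosome in that order.

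**Figure D1:**
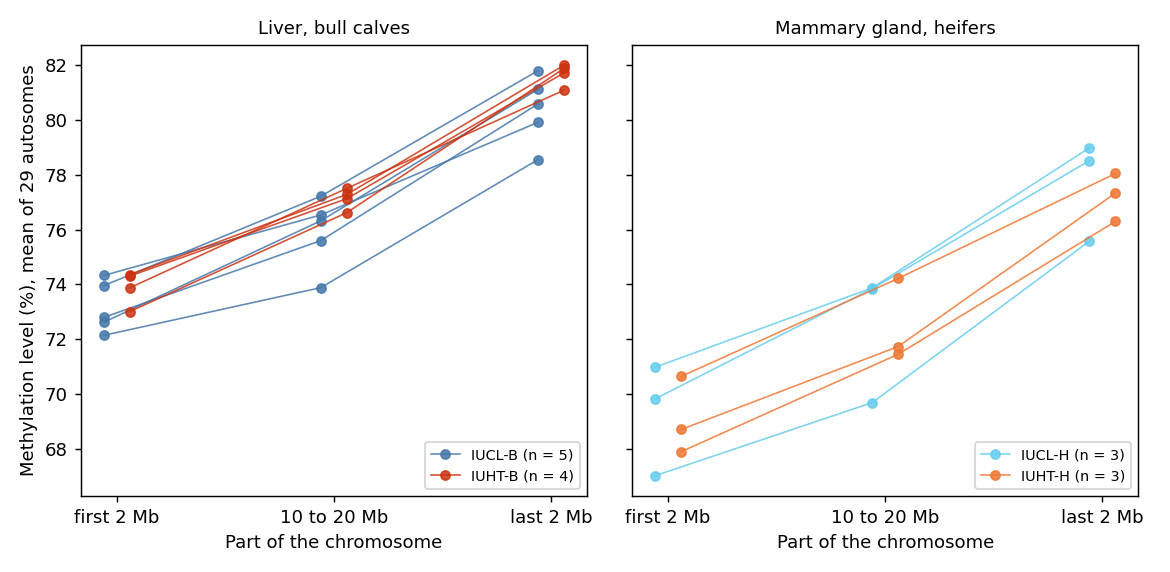
Methylation level (percent, mean of 29 autosomes) of each animal in the first 2 Mb, from 10 to 20 Mb and in the last 2 Mb of the chromosomes, with liver on the left and mammary gland on the right. Each line is 1 animal, coloured by group, and every line goes up from left to right, from 72.1% to 74.4% in the first 2 Mb to 78.6% to 82.0% in the last 2 Mb in liver.

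The size and the sign of the proximal difference varied with how densely positions were listed around a site. Each kb of the genome was placed in a stratum by its number of positions listed in any of the 6 heifers, a measure of RRBS coverage and not of all CpGs. In kb with at most 2 positions the proximal level was 67.7% ± 3.08 in liver against 75.3% ± 3.43 in the inner stretch (SD, n = 9), a difference of -7.58 ± 2.39 points. In mammary gland the same kb gave 59.4% ± 1.79 against 68.5% ± 1.56 (SD, n = 6), a difference of -9.08 ± 0.487 points. The calf with the smallest gap there, IUCL-B 1, differed by -4.49 points, and the heifer with the smallest gap, IUHT-H 2, by -8.50 points.

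With positions pooled over chromosomes the gap was smaller in each denser stratum. It was -6.64 ± 1.55 points in liver and -7.46 ± 0.615 in mammary gland in kb with 3 to 5 positions, and -5.01 ± 0.620 and -4.71 ± 0.322 points in kb with 6 to 10 positions. In kb with 11 to 20 positions it was -3.72 ± 0.720 and -3.23 ± 0.410 points. As the mean over chromosomes the gaps of these 4 strata, from sparse to dense, lay closer together, at -6.20, -6.35, -5.89 and -4.96 points in liver and -7.86, -7.10, -5.86 and -5.47 points in mammary gland. On both measures all 9 calves and all 6 heifers were lower in the proximal windows in each of these 4 strata.

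In kb with over 20 positions the order turned. The proximal level was 76.3% ± 2.52 in liver and 73.2% ± 2.47 in mammary gland, against inner levels of 72.5% ± 4.01 and 70.0% ± 3.34. The difference was +3.78 ± 1.73 points in liver, higher in 9 of 9 calves, and +3.24 ± 0.971 points in mammary gland, higher in 6 of 6 heifers. It ran from 1.90 points in IUHT-B 4 to 6.68 points in IUCL-B 5, and from 1.96 points in IUCL-H 2 to 4.39 points in IUCL-H 3. In each stratum the two-sided exact sign-flip permutation p was the smallest possible, 0.00391 for 9 calves and 0.0312 for 6 heifers (adjusted over these 10 tests 0.00781 and 0.0312). This split by stratum was chosen after the data had been seen.

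These dense kb held 58.3% of the proximal positions that the heifers listed and 39.7% of the inner ones. Chromosome 25 alone held 17.4% of the proximal positions of a heifer and 15.4% of those of a calf. Without it the difference in dense kb was +3.28 points in liver and +3.09 points in mammary gland. Taken as the mean over chromosomes it was +2.54 points in liver, higher in all but 1 of 9 calves, and +1.59 points in mammary gland, higher in all but 1 of 6 heifers. The 5 strata were then given the same weights in both stretches of each chromosome. A weight was the stratum's share of the heifers' positions in the proximal, inner and distal windows together. Kb with over 20 positions, the stratum of opposite sign, had 61.1% of the weight, and other weights were not tried. With these weights the proximal minus inner difference was -0.61 points in liver (exact permutation p = 0.301, n = 9) and -1.38 points in mammary gland (exact permutation p = 0.0312, n = 6). On this weighted measure IUCL-B calves 4 and 5 were at +1.99 and +1.91 points, while the other 7 calves ran from -2.06 to 0.0240. Without these 2 calves it was -1.35 ± 0.765 points (SD, n = 7, lower in 6 of 7, exact permutation p = 0.0312), without calf 4 alone -0.94 and without calf 5 alone -0.93 (exact permutation p = 0.125 for each), settings chosen after the data had been seen.

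**Figure D2:**
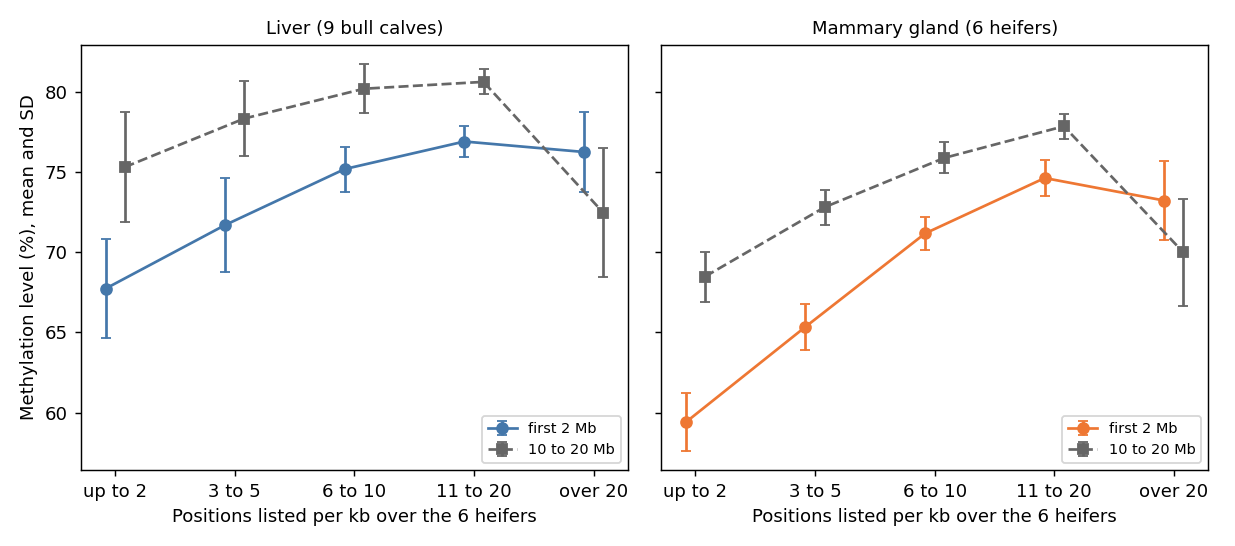
Methylation level (percent, mean and SD over animals) by the number of positions listed per kb over the 6 heifers, in the first 2 Mb (coloured circles) and from 10 to 20 Mb (grey squares), for liver and mammary gland. The first 2 Mb lie below in the 4 sparser strata, with a difference of -7.58 points in liver at up to 2 positions per kb, and above in kb with over 20 positions, at +3.78 points.

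With positions pooled over chromosomes, the low level was strongest at the very start. Over the positions of all 29 chromosomes pooled, the first 100 kb had the lowest level of the 20 steps of 100 kb in both tissues, 69.6% ± 2.74 in liver (SD, n = 9) and 65.1% ± 1.34 in mammary gland (SD, n = 6). The level peaked at 80.6% ± 1.28 in step 10 in liver and at 76.8% ± 1.68 in step 12 in mammary gland. By distance, the first 300 kb averaged 70.6% ± 1.79 in liver, the rest of the first Mb 76.1% ± 0.963 and the second Mb 76.8% ± 1.98. In mammary gland the same 3 stretches averaged 67.7% ± 1.13, 73.2% ± 1.49 and 73.3% ± 2.01. The inner stretch, pooled in the same way, averaged 76.6% ± 1.42 in liver and 73.2% ± 1.79 in mammary gland. Pooled so, the second Mb was not below the inner mean in either tissue, and the rest of the first Mb was below it in liver only. On this pooled measure the first 300 kb were below the second Mb in every animal, with a mean difference of -6.18 ± 2.86 points in liver and -5.57 ± 1.49 points in mammary gland.

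The smallest gaps between the first 300 kb and the second Mb were those of IUCL-B calves 4 and 5 (-1.60 and -1.92 points) in liver and of IUCL-H 3 (-3.19 points) in mammary gland. The largest were those of IUHT-B 4 (-10.3 points) and IUCL-H 2 (-7.48 points). From 2 to 5 Mb the level was 77.5% ± 1.24 in liver and 74.2% ± 1.45 in mammary gland, and from 5 to 10 Mb it was 77.7% ± 1.22 and 74.0% ± 1.54. Both were above the proximal windows. An alternative chosen after the data had been seen left out the first 300 kb. By chromosome means, and not by pooled positions as above, the difference from the inner stretch was then -2.39 points in liver (exact permutation p = 0.00391) and -3.07 points in mammary gland (exact permutation p = 0.0312). By chromosome means leaving out the start did not raise the level in every animal: without it the proximal level of IUCL-H 3 was 66.6% in place of 67.0%, and that of IUCL-B 4 stayed within 74.3% to 74.4%.

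**Figure D3:**
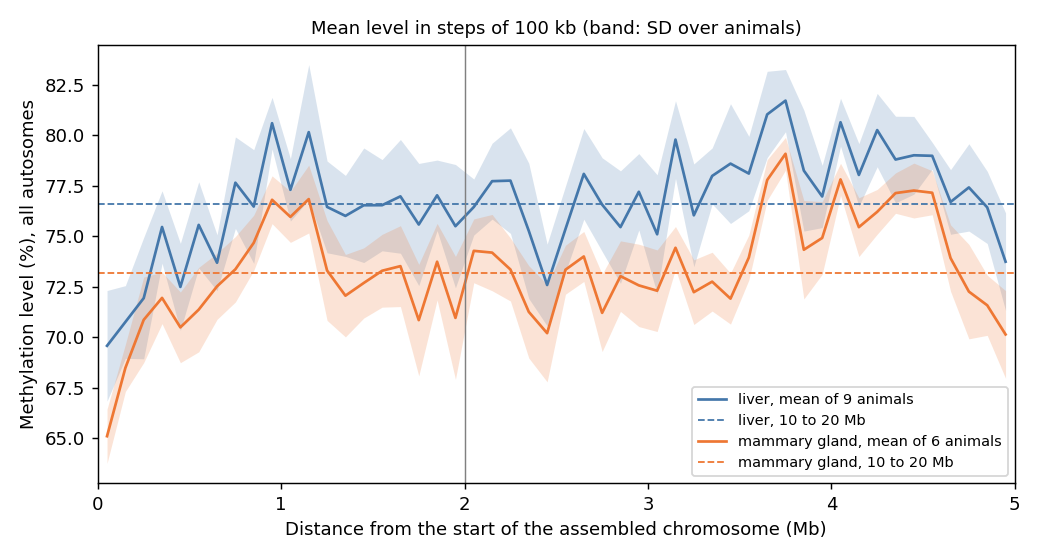
Methylation level (percent) in steps of 100 kb against the distance from the start of the assembled chromosome (Mb), over the positions of all autosomes together, with the SD over animals as a band and the level from 10 to 20 Mb as a dashed line. The lines start at 69.6% in liver and 65.1% in mammary gland, and first cross the dashed lines within the first Mb. From 2 Mb (grey line) to 5 Mb the liver line varies between 72.6% and 81.7% and the mammary line between 70.1% and 79.1%.

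Chromosomes differed more from each other at this end than in the inner stretch or at the distal end. The SD over the 29 chromosomes of the proximal level was 5.08 points in liver and 6.39 in mammary gland. Over the distal 2 Mb, windows of the same length, it was 2.79 and 3.1 points, and over the inner stretch 2.5 and 3.14. The proximal level ran from 64.5% (chromosome 21) to 82.2% (chromosome 24) in liver and from 58.0% (chromosome 6) to 79.0% (chromosome 20) in mammary gland. It was below the distal level on 26 of 29 chromosomes in both tissues, but below the inner level on only 18 of 29 in liver and 19 of 29 in mammary gland.

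The same chromosomes stood at the same end of the order in the 2 tissues, which came from different animals. Across the 29 chromosomes the proximal minus inner differences of liver and mammary gland had a Pearson r of 0.894 and a Spearman rho of 0.872, as a description. The chromosomes share their sequence, base composition and restriction sites between the tissues. The difference had the same sign in both tissues on 24 chromosomes, 16 lower and 8 higher. On 7 chromosomes (12, 13, 14, 17, 19, 21 and 23) the proximal window was lower in each of the 15 animals, and on 5 (3, 7, 8, 11 and 24) it was higher in each of them.

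In liver the largest deficits were those of chromosomes 12 (-14.3 ± 5.70 points), 21 (-14.2 ± 1.61) and 13 (-9.92 ± 3.93; SD, n = 9). On chromosome 12 the proximal level was 57.9% to 69.6% over the calves and the inner mean 79.6%. On chromosome 21 the calves lay between 62.2% and 67.0% and the heifers between 59.0% and 64.2%, against inner means of 78.7% and 74.8%. In mammary gland the largest deficits were those of chromosomes 23 (-13.5 ± 2.61 points), 19 (-13.4 ± 2.00) and 26 (-13.2 ± 1.70; SD, n = 6). The proximal window of chromosome 6 was the lowest of all 60 windows of its chromosome in both tissues. In liver the first window was among the 3 lowest of its chromosome on 10 of 29 chromosomes, and in mammary gland on 7.

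The opposite extreme was chromosome 24. Its proximal window had 81.1%, 81.7%, 82.4%, 79.5% and 78.2% in IUCL-B 1 to 5 and 82.4%, 84.3%, 83.9% and 86.0% in IUHT-B 2 to 5, all above the inner levels of the same calves. The difference was +6.83 ± 3.15 points in liver and +12.3 ± 2.19 points in mammary gland, where the inner stretch of this chromosome averaged 66.3%. In liver chromosomes 7 (+6.04 ± 1.18) and 8 (+4.03 ± 2.07) followed, and in mammary gland chromosomes 8 (+7.73 ± 1.76) and 16 (+6.99 ± 0.867). Chromosome 16 did not stand out in liver, at -0.32 ± 3.1 points.

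**Figure D4:**
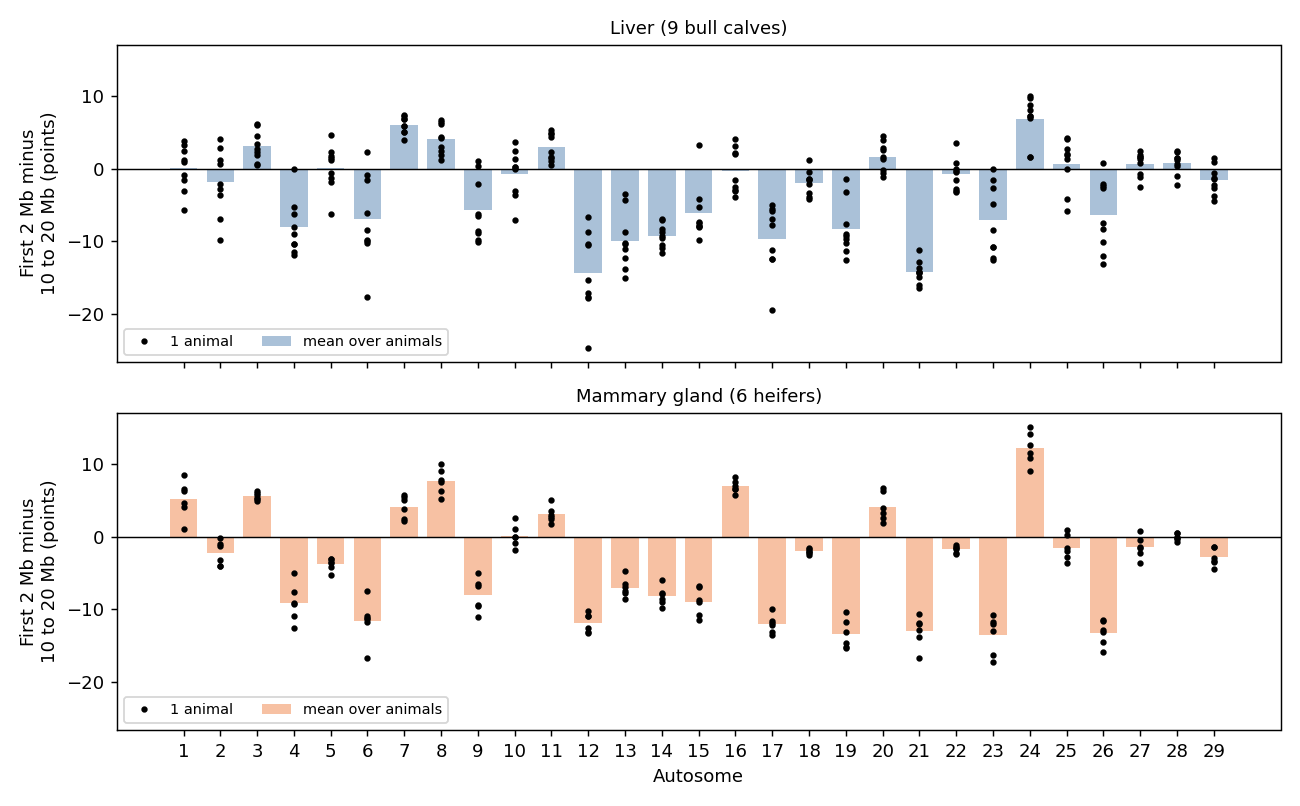
Proximal minus inner methylation (points) of each autosome, in liver above and mammary gland below. Bars are means over animals and dots single animals. Chromosomes 12 and 21 reach -14.3 and -14.2 points in liver, chromosome 24 reaches +12.3 points in mammary gland, and the 2 panels show much the same pattern.

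The chromosomes with few listed positions were mostly low. Of the 10 chromosomes with the fewest proximal positions in heifers (1636 to 4003 per animal), all 10 were lower than their inner stretch, by -13.5 to -6.98 points. Of the 10 with the most (8883 to 39767 per animal), 4 were lower and 6 higher, with a mean difference of +2.65 points. In liver 9 of the 10 poorest chromosomes were lower, with a mean of -7.24 points, and 7 of the 10 richest were higher, with a mean of +0.531 points. Across the 29 chromosomes the proximal level and log2 of the number of proximal positions had a Pearson r of 0.804 in mammary gland and 0.702 in liver (Spearman rho 0.804 and 0.749), from the same libraries. Chromosome 14 departed from this order. It had 16244 positions per heifer, but its difference was -8.14 ± 1.31 points in mammary gland and -9.23 ± 1.64 points in liver. In liver chromosomes 21 and 13, with 950 and 840 positions per calf, were not among the 10 poorest. Their differences were -14.2 and -9.92 points.

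**Figure D5:**
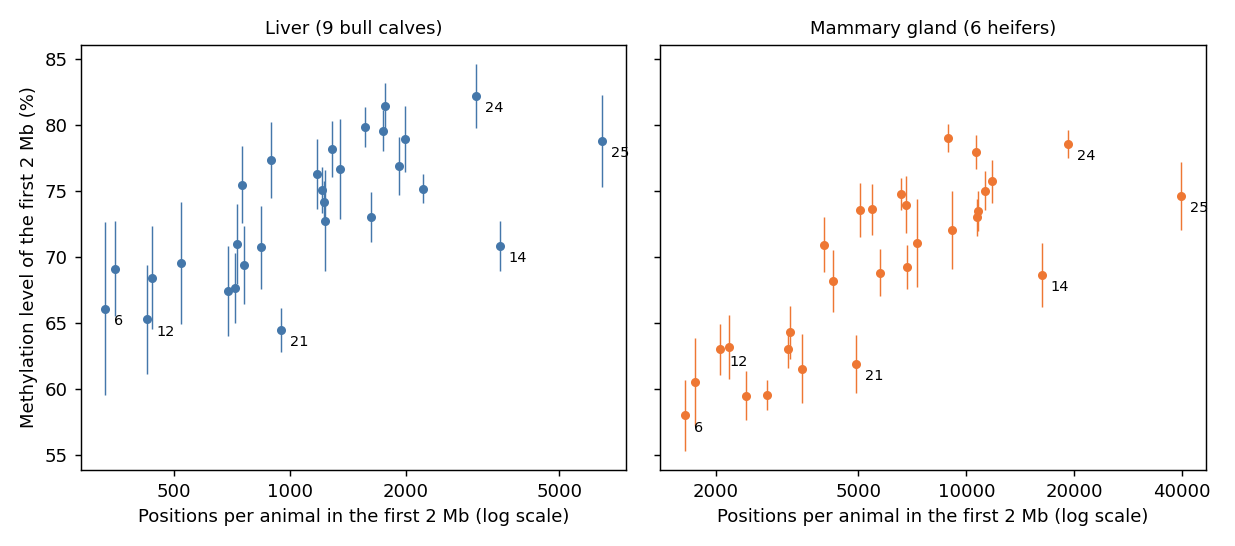
Methylation level of the first 2 Mb (percent, mean and SD over animals) of each autosome against its mean number of listed positions per animal (log scale), for liver and mammary gland. Labels are chromosome numbers. The level goes up with the number of positions (r = 0.702 in liver and 0.804 in mammary gland), and chromosomes 14 and 21 lie below chromosomes with similar numbers of positions.

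Liver was more methylated than mammary gland in these windows. The mean proximal level was 73.5% ± 0.850 in liver (SD, n = 9) and 69.2% ± 1.57 in mammary gland (SD, n = 6), and the lowest calf (72.1%) was above the highest heifer (71.0%). The difference of 4.31 points had an exact permutation p of 0.0002, the smallest that splits of the 15 animals can give (two-sided, adjusted p = 0.0022). It was 1.38 points at positions with at least 5 reads (exact permutation p = 0.0767) and 1.49 points at positions listed in all 6 heifers (exact permutation p = 0.0991), neither past 0.05. At positions with more than 10 reads it was 5.55 points (exact permutation p = 0.0002). At that depth a heifer had as few as 1 to 4 proximal positions on a chromosome, and each chromosome counted alike. At positions listed in all heifers, a calf had as few as 0 to 12 on a chromosome. The proximal minus inner difference itself was not shown to differ between the tissues (0.322 points, exact permutation p = 0.342), but this depended on the setting. It was -1.35 points with pooled levels (exact permutation p = 0.0499), 0.935 points against the rest of the chromosome (exact permutation p = 0.0416) and 0.678 points without the first 300 kb (exact permutation p = 0.0266), all unadjusted.

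By window, limma called 20 of the 29 proximal windows between tissues at an adjusted p of 0.05 or less, a share of 69.0%, against 63.0% of all 1268 windows tested. All 20 were higher in liver, against 62.9% of all windows (798 of 1268), and none was higher in mammary gland, against 0.0789% (1 window). The median difference was 3.97 points over the proximal windows and 4.03 points over all windows. An overdispersion F test on the read counts called 4 of the 29 (13.8%), against 23.0% of all 1268 windows (292). The largest differences were on chromosomes 26 (10.1 ± 1.81 points, SE, limma adjusted p = 0.000298), 23 (8.59 ± 1.70, limma adjusted p = 0.000576) and 19 (8.12 ± 1.23, limma adjusted p = 6.45e-05). In 6 of the 29 windows (20.7% of them) no calf overlapped a heifer, against 15.2% of all windows. The window of chromosome 13 was the only one with a lower mean in liver, 70.7% ± 3.12 against 70.9% ± 2.10, a difference of -0.20 points.

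Among the 337 proximal bins of 100 kb with at least 5 positions in all 15 animals, the overdispersion F test called 1 between tissues, against 0.791% of 14154 bins tested (0.749% higher in liver and 0.0424% higher in mammary gland). It was the first 100 kb of chromosome 11, positions 1 to 100000. Its pooled level was 83.6%, 75.1%, 72.7%, 71.3% and 65.2% in IUCL-B 1 to 5 and 86.4%, 86.0%, 74.2% and 97.9% in IUHT-B 2 to 5. In heifers it was 56.9%, 57.2% and 62.2% in IUCL-H and 54.7%, 54.6% and 56.0% in IUHT-H. The tissues did not overlap (79.1% ± 10.1 against 56.9% ± 2.82, adjusted p of the F test 0.00978). limma on the mean percentages called 29 of the 337 bins (8.61%), against 11.1% of all 14154 bins (1575).

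Prenatal heat stress was not shown to change the level of the proximal windows. In liver the mean was 73.9% ± 0.624 in IUHT-B (SD, n = 4) and 73.2% ± 0.930 in IUCL-B (SD, n = 5), a difference of 0.720 points (exact permutation p = 0.238, adjusted p = 0.437), and 0.464 to 1.01 points without single calves. The groups overlapped, with the lowest IUHT-B calf at 73.0% and the highest IUCL-B calf at 74.3%. In mammary gland the mean was 69.1% ± 1.41 in IUHT-H and 69.3% ± 2.04 in IUCL-H (SD, n = 3 each), a difference of -0.193 points (exact permutation p = 0.9) that ran from -1.32 to 0.661 without single heifers. With 3 heifers against 3 the smallest possible p is 0.1. The treatment difference was not shown to differ between tissues (0.913 points, exact permutation p = 0.542, and 0.0598 to 2.04 points without single animals). For the proximal minus inner difference, IUHT minus IUCL was -0.505 points in liver (exact permutation p = 0.294) and -0.194 points in mammary gland (exact permutation p = 0.8). The signs were not stable. At positions listed in all heifers the liver difference was -0.70 points for the level and 1.38 points for proximal minus inner, the latter was 0.00844 without IUCL-B calves 4 and 5, and in mammary gland it was 2.88 points with more than 10 reads. None of these passed 0.05. At positions listed in all heifers a calf had as few as 0 to 12 proximal positions on a chromosome. IUHT-B 3 and 5 were averaged over 28 chromosomes there. With more than 10 reads a heifer had as few as 1 to 4.

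limma called none of the 29 windows between treatments in either tissue, against 0.0% of 1268 windows in liver and 0.0% of 1271 in mammary gland. At an unadjusted p under 0.05 it found 1 of 29 in liver (228 of 1268 overall) and 0 of 29 in mammary gland (0 of 1271 overall). The overdispersion F test also called 0 windows, against 0.0% of all 1268 in liver and 0.0% of all 1271 in mammary gland. In liver 20 of the 29 windows had a higher mean in IUHT-B, a share of 69.0%, against 71.8% of all windows. The window with the smallest p was that of chromosome 24, 84.2% ± 1.48 in IUHT-B and 80.6% ± 1.71 in IUCL-B, a difference of 3.59 ± 1.43 points (SE, limma adjusted p = 0.232). In mammary gland 9 of 29 windows had a higher mean in IUHT-H (31.0%), against 44.9% of all windows. This count was 20, 15 and 4 without IUCL-H 1, 2 or 3 and 17, 5 and 12 without IUHT-H 1, 2 or 3, while the share of all windows ran from 16.8% to 74.5%.

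Bins of 100 kb gave no treatment call by the overdispersion F test, 0 of 337 in liver (0.0% of 14157 overall) and 0 of 580 in mammary gland (0.0% of 25121 overall). At an unadjusted p under 0.05 it found 36 of the 337 (10.7%, against 11.1% of all bins, 1571 of 14157) and 7 of the 580 (1.21%, against 1.38%, 347 of 25121). limma on the mean percentages called 1 of the 337 in liver (0.297%, against 0.862% of all bins, 122 of 14157) and 0 of the 580 (0.0% of all bins). That bin, on chromosome 15 from 1700001 to 1800000, is named after its values were seen. It had 92.9%, 64.3%, 80.0%, 87.7% and 78.5% in IUCL-B 1 to 5 and 58.3%, 16.7%, 40.0% and 16.7% in IUHT-B 2 to 5 (limma adjusted p = 0.0438), with only 6 to 24 positions in an IUHT-B calf. The mammary bin test recovered 0 of 200 simulated bins changed by 25 points, so 0 calls there say nothing about stability. In liver 0 calls do not show stability either, as single bins varied widely between calves.

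Over the 337 bins the median level was 78.2% in liver and 80.0% over 1598 inner bins with the same filter. Over all 580 bins it was 69.3% in heifers, and 72.8% over 2900 inner bins. In heifers 26 of the 580 bins (4.48%) were under 50% methylated, against 50 of the 2900 inner bins (1.72%). In liver 3 of the 337 bins (0.890%) were under 50%, against 20 of the 1598 inner bins (1.25%). The bins varied between animals with a median SD of 13.4 points in liver and 3.96 points in mammary gland, so single bins were less certain in calves.

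Of the 337 bins, the lowest in both tissues was on chromosome 16, from 600001 to 700000. It had 36.0%, 13.6%, 19.1%, 15.9% and 21.9% in IUCL-B 1 to 5 and 8.04%, 18.2%, 5.07% and 31.9% in IUHT-B 2 to 5. The heifers had 20.2%, 30.6% and 21.2% in IUCL-H and 24.3%, 28.5% and 33.0% in IUHT-H. A bin on chromosome 21 from 300001 to 400000 was also low in both tissues, at 43.5% ± 20.3 in liver and 42.0% ± 5.00 in mammary gland. The calves spread from 1.43% to 72.0% there, while the heifers stayed between 36.1% and 47.7%. A calf listed 7 to 119 positions in this bin and a heifer 133 to 166.

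The highest mammary bins among them were on chromosome 24 from 1100001 to 1200000 (89.6% ± 1.04), chromosome 28 from 1800001 to 1900000 (89.1% ± 2.23) and chromosome 11 from 500001 to 600000 (88.9% ± 1.38; SD, n = 6). The highest in liver was on chromosome 7 from 1100001 to 1200000 (96.5% ± 5.02, SD, n = 9, with 6 to 77 positions in a calf). The widest tissue gap with a higher liver mean was on chromosome 6 from 700001 to 800000, at 87.6% ± 16.0 in liver and 57.0% ± 5.74 in mammary gland. A calf listed 7 to 63 positions there, with as few as 22 read calls, and a heifer 79 to 123 positions. The widest with a higher mammary mean was on chromosome 24 from 200001 to 300000, at 52.7% ± 26.5 in liver and 80.4% ± 4.45 in mammary gland. In this bin the calves ran from 20.3% to 99.2%, on both sides of the heifers. Outside the chromosome 11 bin, none of these bins passed the F test between tissues.

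Read depth was uneven within the proximal windows. In heifers 1.20% to 1.56% of the proximal positions had more than 10 reads, against 0.315% to 0.491% of the inner positions, a ratio of 3.18 to 3.93 that was above 1 in all 6 heifers. In calves the shares were close, at 19.1% to 50.1% and 17.6% to 50.8%, with the proximal share the higher in 1 of 9. Of the 580 proximal bins, 23 (3.97%) had more than 5 calls per position in the mean of the heifers, against 303 of the 25138 autosomal bins (1.21%).

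The deepest proximal bin lay on chromosome 28 from 1800001 to 1900000. It had 67.2, 21.8 and 145 calls per position in IUCL-H 1 to 3 and 15.7, 32.1 and 166 in IUHT-H 1 to 3. Its calves ran from 2.08 to 185 calls per position, yet its level stayed at 84.0% to 91.9% in calves and 85.4% to 92.0% in heifers. A bin on chromosome 12 from 500001 to 600000 followed, with 19.3 to 55.9 calls per position in heifers over only 36 to 58 positions. A further 3 bins of chromosome 14, between 200001 and 600000, were among the 10 deepest, with 25.7 to 174 calls per position in calves in the first of them.

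Among positions with more than 10 reads, an intermediate level (above 10% and below 90%) was more frequent near the centromere in calves. The share was 1.72% to 11.8% of such proximal positions against 0.333% to 7.78% of the inner ones, and the proximal share was the higher in all 9 calves, by 1.51 to 5.90 times. In heifers most positions of this depth were intermediate in both stretches, 63.0% to 68.6% and 58.5% to 68.4%, with the proximal share the higher in 5 of 6. The share of fully or nearly methylated positions of any depth (at least 90%) was lower in the proximal windows in all 15 animals, 69.9% to 75.9% against 71.3% to 77.2% in calves and 63.4% to 67.5% against 65.4% to 69.6% in heifers.

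Differentially methylated cytosines (DMCs) were sites read more than 10 times in each animal of the tissue, with a difference of at least 15 points between the pooled reads of the treatments and a q-value of 0.2 or less in a logistic regression. In liver 62 proximal sites could be tested, on 5 chromosomes only, and 17 were DMCs (27.4%, against 33.1% of all 900 sites tested). In IUHT-B 8 were hypermethylated and 9 hypomethylated, against 14.2% and 18.9% of all tested sites. Chromosome 14 held 39 of the 62 sites and 12 of the 17 DMCs, with first and last tested positions of 126751 and 1077320. This regression has no term for the spread between animals. With an overdispersion term 3 of the 62 (4.84%) passed, against 6.33% of all tested sites (57 of 900). limma on log2 ratios of the counts called 1 of the 62 (1.61%), against 0.333% (3 of 900). Without IUHT-B calf 5 the test reached 122 proximal sites, of which 39 (32.0%) were DMCs, against 34.7% of all sites (489 of 1409).

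The 3 sites that passed the overdispersion test were on chromosomes 14 and 4. At position 1071833 of chromosome 14 IUCL-B 1 to 5 had 48.7%, 62.6%, 97.4%, 96.0% and 47.1%, and all 4 IUHT-B calves 100% (11 to 637 reads over the 9 calves). At position 583437 of chromosome 14 IUCL-B 1 to 5 had 82.5%, 77.2%, 84.9%, 95.8% and 93.1% and the 4 IUHT-B calves again 100% (48 to 639 reads over the 9 calves). This was also the site that limma called. Both chromosome 14 sites exceeded the coverage cap, an upper read limit set for each library. Position 583437 had 639 reads in IUCL-B 1 (cap 437), 248 in IUCL-B 5 (cap 115) and 282 in IUHT-B 2 (cap 199). Position 1071833 had 637 reads in IUCL-B 2 (cap 426). Under the cap 13 proximal sites could be tested by the logistic regression, and 4 were DMCs (30.8%), all hypomethylated in IUHT-B. Of all 213 sites tested under the cap 82 were DMCs (38.5%), 33 hypermethylated and 49 hypomethylated. At position 24248 of chromosome 4 IUCL-B 1 to 5 had 81.7%, 93.3%, 87.8%, 91.7% and 80.8%, and IUHT-B 2 to 5 had 65.2%, 67.0%, 68.4% and 64.3% (14 to 155 reads over the 9 calves). The groups did not overlap at any of the 3, and they were the only 3 of the 17 DMCs without overlap (17.6%), against 7.38% of all liver DMCs (22 of 298).

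In mammary gland 1313 proximal sites could be tested and 22 were DMCs (1.68%, against 1.54% of all 18486 sites tested). In IUHT-H 7 were hypermethylated and 15 hypomethylated, against 0.427% and 1.11% of all tested sites. The DMCs lay on 11 chromosomes, and the heifers of the groups did not overlap at 15 of the 22 (68.2%), against 60.4% of all mammary DMCs (172 of 285). With an overdispersion term 0 of the 1313 sites passed (0.0% of all tested sites), with 20 at an unadjusted p under 0.05 (1.52%, against 1.62% of all). limma on log2 ratios also called 0 (0.00541% of all, 1 site), with 86 at an unadjusted p under 0.05 (6.55%, against 5.01% of all). Among the DMCs without overlap, the largest difference was at position 156366 of chromosome 29, hypomethylated. It had 78.9%, 76.5% and 58.1% in IUCL-H 1 to 3 and 41.7%, 45% and 44.0% in IUHT-H 1 to 3 (17 to 31 reads over the 6 heifers). Position 14491 of chromosome 16 had 46.0%, 53.3% and 62.3% in IUCL-H and 43.2%, 36.2% and 17.9% in IUHT-H (37 to 61 reads over the 6 heifers). It exceeded the coverage cap, with 56 reads in IUHT-H 3 (cap 47). Position 1041644 of chromosome 3 had 54.7%, 59.5% and 56.2% in IUCL-H and 46.3%, 33.7% and 27.8% in IUHT-H (16 to 86 reads over the 6 heifers). This site exceeded the coverage cap, with 86 reads in IUHT-H 2 (cap 57).

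The hypermethylated mammary sites with the largest difference and no overlap all lay on chromosome 14. Position 583223 had 87.0%, 54.5% and 70.0% in IUCL-H and 96.3%, 91.3% and 95.9% in IUHT-H. Position 468986 had 36.4%, 31.5% and 40.5% in IUCL-H and 67.9%, 53.3% and 53.1% in IUHT-H. Position 374622 had 58.7%, 38.0% and 34.7% in IUCL-H and 67.6%, 59.5% and 68.8% in IUHT-H. All of these sites exceeded the coverage cap. Position 583223 had 242 reads in IUHT-H 3 (cap 47), and in IUCL-H 2 (cap 46) positions 468986 and 374622 had 73 and 71 reads. Under the cap 0 of 448 proximal sites were DMCs, against 0.467% of all sites (29 of 6207). Chromosome 14 also held the most testable sites, 414 of the 1313, of which 4 were DMCs. Without IUCL-H 3 the proximal DMCs numbered 12 of 1342 sites (0.894%), against 1.72% of all sites (332 of 19298).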

How the data were processed

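Per the study's methods, the authors digested DNA with MspI and then TaqαI, kept fragments under 300 bp and sequenced single ends of 50 bp. According to the labels' processing notes, reads were trimmed with Trim Galore 0.4.4 and mapped with Bismark 0.17.0 to UMD3.1. The study's methods name earlier versions of both tools and give the build as UMD3.1.1. The authors deposited, for each listed cytosine, the count of methylated and of unmethylated read calls and the percent methylated. The files list positions with 1 read, so most heifer positions are 0% or 100%, and the 2 strands of a CpG are listed apart. Reads carried no molecular identifiers, so counts are of reads and not of molecules.

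Levels were means of the deposited percent over positions, then over chromosomes 1 to 29. Animals were compared by exact permutation tests (two-sided), sign-flip tests within animals and splits between groups, with Benjamini-Hochberg adjustment over the 11 tests. Windows of 2 Mb with at least 20 positions in every animal were fitted with limma 3.58.1 on the mean percent. Bins of 100 kb with at least 5 positions in every animal were fitted by logistic regression of pooled counts with a McCullagh-Nelder overdispersion term and an F test. Single sites followed the study's cut-offs with a likelihood-ratio test. All fits covered all autosomal windows or bins, or all sites, and p-values were adjusted over all of them. On simulated data with 200 features changed by 25 points, limma recovered 200 windows in mammary gland, and the bin test recovered 184 in liver, 200 between tissues and 0 in mammary gland. The simulation gave all bin sets the same spread between animals. Real proximal bins had a median SD of 13.4 points in liver and 3.96 points in mammary gland. The recoveries of 184 and 200 bins therefore do not measure the power of the real comparisons with calves. The simulated windows held pooled percentages, whereas the real window test used the mean percent over positions. Real treatment differences of the proximal windows in mammary gland ran from -1.70 to 3.27 points. The recovery of windows changed by 25 points does not measure power for changes of that size. The site test recovered 166 in mammary gland with 21 false calls. Tests used Python 3.11.15, scipy 1.17.1 and R 4.3.3.

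The windows, comparisons and rules were chosen with earlier results of these data known. Named were, per tissue, the 3 chromosomes at each end of the proximal minus inner difference, the bins highest, lowest and most different between tissues, and the 3 DMCs per direction with the largest difference among those without overlap. Alternatives changed the level, read minimum, coverage cap, window, density weights, test and animals.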

Additional observations from a re-analysis of the deposited data

Results flagged for a closer look

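Of 42 checks of a measure within a group of calves for a value far from the others, 1 was set apart. Chance alone sets apart about 1 in 20 such checks. The checks used the same calves and are not independent. In IUHT-B calf 2 the proximal windows were 1.24 times as densely listed as the inner stretch, against 1.40 to 1.43 times in the other 3 calves of its group. Its proximal level of 73.9% lay within the range of those calves.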

How the results depend on the processing

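Every alternative kept the sign of the proximal minus distal difference in both tissues. The proximal minus inner difference kept its sign in all but kb with over 20 positions, where it was 3.78 points in liver (2.54 as a mean over chromosomes, 3.28 without chromosome 25) and 3.24 points in mammary gland (1.59 and 3.09). It no longer passed with the density strata weighted alike in liver (-0.61 points, -0.94 and -0.93 without IUCL-B calf 4 or 5, but -1.35 without both, past 0.05). In that setting 61.1% of the weight lay on kb with over 20 positions. Nor did it pass with more than 10 reads in mammary gland (-2.90 points). Leaving out animals gave -3.13 to -2.88 points in liver and -3.42 to -3.15 in mammary gland, and -8.47 to -8.21 points against the distal end, where 5 heifers cannot give a p under 0.0625. Windows of 1 Mb gave -4.29 and -4.91 points, and windows of 5 Mb -0.889 (IUCL-B 5 at 0.184) and -0.997. With all chromosomes together it was -1.10 points in liver and -0.73 in mammary gland. The tissue difference of the level was 1.38 points with at least 5 reads and 1.49 at positions listed in all heifers, neither past 0.05, and 5.55 with more than 10 reads. The tissue difference of proximal minus inner changed sign with pooled levels (-1.35, itself past 0.05 unadjusted), more than 10 reads (-0.43) and all chromosomes together (-0.37), and passed 0.05 unadjusted against the rest of the chromosome (0.93) and without the first 300 kb (0.68).

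No treatment difference of the level or of proximal minus inner passed 0.05 under any alternative. In liver the level changed sign at positions listed in all heifers (-0.70 points), and proximal minus inner did so with at least 5 reads (0.15), at those positions (1.38) and without IUCL-B calves 4 and 5 (0.00844). In mammary gland the level changed sign without the first 300 kb (0.0700) and ran from -1.32 to 0.66 points without single heifers. Its proximal minus inner changed sign with pooled levels (0.14), at least 5 reads (0.15), more than 10 reads (2.88), equal density (0.00663), the rest of the chromosome (0.22) and without the first 300 kb (0.0689), and ran from -0.607 to 0.0703 without single heifers. The tissue by treatment difference was -0.50 at positions listed in all heifers and 0.0598 to 2.04 without single animals. Causes of these changes were not tested.

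Between tissues, proximal windows called numbered 4 by the F test (292 of all 1268) and 16 to 21 without single animals (593 to 926 of all 1268). Proximal bins called numbered 29 by limma (1575 of all 14154), 7 with at least 1 position (464 of 23596), 13 at an adjusted p of 0.2 (688 of 14154) and 7 without IUCL-B calves 4 and 5 (500 of 14154). Without single animals they numbered 1 to 4 (0.292% to 1.13%), against 0.382% to 1.68% of all bins. Between treatments in liver limma called 1 bin (122 of all 14157). Liver DMCs numbered 3 by the F test (57 of all 900) and 1 by limma (3 of 900). They were 30 of 98 sites with at least 5 reads (636 of 1728) and 4 of 13 under the coverage cap (82 of 213). Without single calves they numbered 18 to 39, 28.1% to 33.8% of the proximal sites tested, against 32.6% to 36.8% of all sites. Mammary DMCs numbered 0 by the F test, by limma and under the cap (0 and 1 of all 18486, 29 of 6207). Without single heifers they numbered 12 to 28, 0.894% to 2.10% of the proximal sites tested, against 1.39% to 2.40% of all sites.

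The calf numbers were not shown to pair the groups. Deviations of same-numbered IUCL-B and IUHT-B calves had an r of -0.0081 to 0.0187 over 14157 bins, across bins that are not independent. Calves of different numbers had an r of -0.0195 to 0.0160. Single bins varied widely between calves, so this check cannot exclude a pairing. With the number as a replicate block the liver difference was 0.63 points for the level (exact permutation p = 0.375) and -0.52 for proximal minus inner (exact permutation p = 0.25). In that fit 0 proximal windows and 0 proximal bins were called, against 0 of all 1268 windows and 0 of all 14157 bins. Depth limits single positions in heifers, where the median proximal position has 1 read, and in calves, where the median is 1 to 11 reads.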
